A study of Neurospora crassa with 12 samples.

Results

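The enzymes of glycolysis and ethanol fermentation were followed in Neurospora crassa through 10 genes, chosen as a list of locus tags: gpi-1 (NCU07281), emp-3 (NCU00629), fba (NCU07807), NCU07550, gpd-1 (NCU01528), pgk (NCU07914), emp-7 (NCU10042), ace-8 (NCU06075), cfp (NCU02193) and adh-1 (NCU01754). They are 10 of the 9729 NCU genes (genes with a Neurospora locus tag) among 11409 counted features, and all 10 passed the filter on low counts that left 7582 NCU genes for testing. NCU07550 is listed with these enzymes but has no symbol in the reference used here, so no step is assigned to it.

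RNA was sequenced from mycelium of the wild-type strain FGSC2489, 48 h after inoculation by the labels (the study's methods give a shorter culture), which was treated with 40 µM HSAF, an antifungal compound of the bacterium Lysobacter enzymogenes. The 4 groups were the untreated HSAF-0 (libraries A, B and C) and the mycelium treated for 5 min (HSAF-5; D, E and F), 30 min (HSAF-30; G, H and I) and 60 min (HSAF-60; J, K and L). All groups share the same strain and genotype, and no treatment other than HSAF is labelled, so a vehicle alone was not analysed here. The study compared the time points to find genes that respond to HSAF. The labels do not say whether the 3 libraries of a group came from separate cultures, so p-values measure the spread between these libraries.

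Glycolysis turns glucose into pyruvate in the cytosol and yields ATP and NADH. Where NADH is not reoxidised by respiration, pyruvate decarboxylase and alcohol dehydrogenase turn pyruvate into ethanol and restore NAD+. In fungi the genes of this pathway are among the most strongly expressed of the genome, and in N. crassa gpd-1 is also known as the clock-controlled gene ccg-7.

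Depth on the NCU genes differed strongly between libraries. Total counts lay between 11517462 and 15698448, but counts on NCU genes between 790513 in library I and 11265740 in library J, because a pair of unannotated features took 25.2% to 93.7% of the counts, most in I. The smallest count of any of the 10 genes was 179 (emp-3 in library I). Counts were expressed as CPM, the counts of a gene scaled to a common total over the NCU genes with TMM factors, and a result that rests on library I is given with and without it. Conidial genes, which mark asexual spores, summed to 12.4 to 163 CPM over con-6, con-8, con-10, con-13 and eas, with the highest sum in library E. The gene con-13 was at 0 counts in 7 of 12 libraries and con-6 in 6, and neither was tested. At 30 min against HSAF-0, con-10 was called higher (log2 fold change 3.86, adjusted p = 0.00891, edgeR), at 6.40 CPM or less in every library. Neither con-8 (-1.43, adjusted p = 0.126, edgeR) nor eas (0.91, adjusted p = 0.336) was called there. The hyphal genes act, Bml and chs-1 summed to 1612 to 1654 CPM in HSAF-0, 1839 to 2392 in HSAF-5, 3271 to 3830 in HSAF-30 and 1717 to 2780 in HSAF-60. They did not move together: at 30 min act and chs-1 were called higher (log2 fold changes 1.01 and 2.92 against HSAF-0, adjusted p = 0.00974 and 1.52e-06, edgeR), while Bml was at -0.75 (adjusted p = 0.0531) and was called lower at 60 min (-1.31, adjusted p = 0.00563). The part of either marker list in the results was not tested.

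The summed level of the 10 genes was lower in HSAF-30 and HSAF-60 than in HSAF-0, while HSAF-5 was above HSAF-0 in CPM with TMM scaling but overlapped it as a share of the NCU counts. They held 4.14% to 4.84% of the NCU counts in HSAF-0, 3.45% to 5.56% in HSAF-5, 1.02% to 3.01% in HSAF-30 and 1.79% to 2.52% in HSAF-60. Their summed level was 40224, 42470 and 40496 CPM in A, B and C and 54506, 68667 and 49282 CPM in D, E and F. It was 12793, 36711 and 12352 CPM in G, H and I and 19366, 17039 and 15672 CPM in J, K and L. In this sum library H thus lay near HSAF-0, while G and I, of the same group, were the lowest of all libraries. Gene by gene H did not match HSAF-0. For 7 of the 10 genes it lay below all HSAF-0 libraries, as with fba at 1324 CPM against 3435 to 3810 CPM. For emp-7 (19075 CPM) and cfp (6624 CPM) it lay above them, and for gpi-1 within their range. In the summed CPM of the 10 genes the 30 min group is the least uniform of the 4, and results at 30 min are given with library H in view. In bulk RNA, fewer cells of a type and less RNA per cell cannot be told apart.

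**Figure D1:**
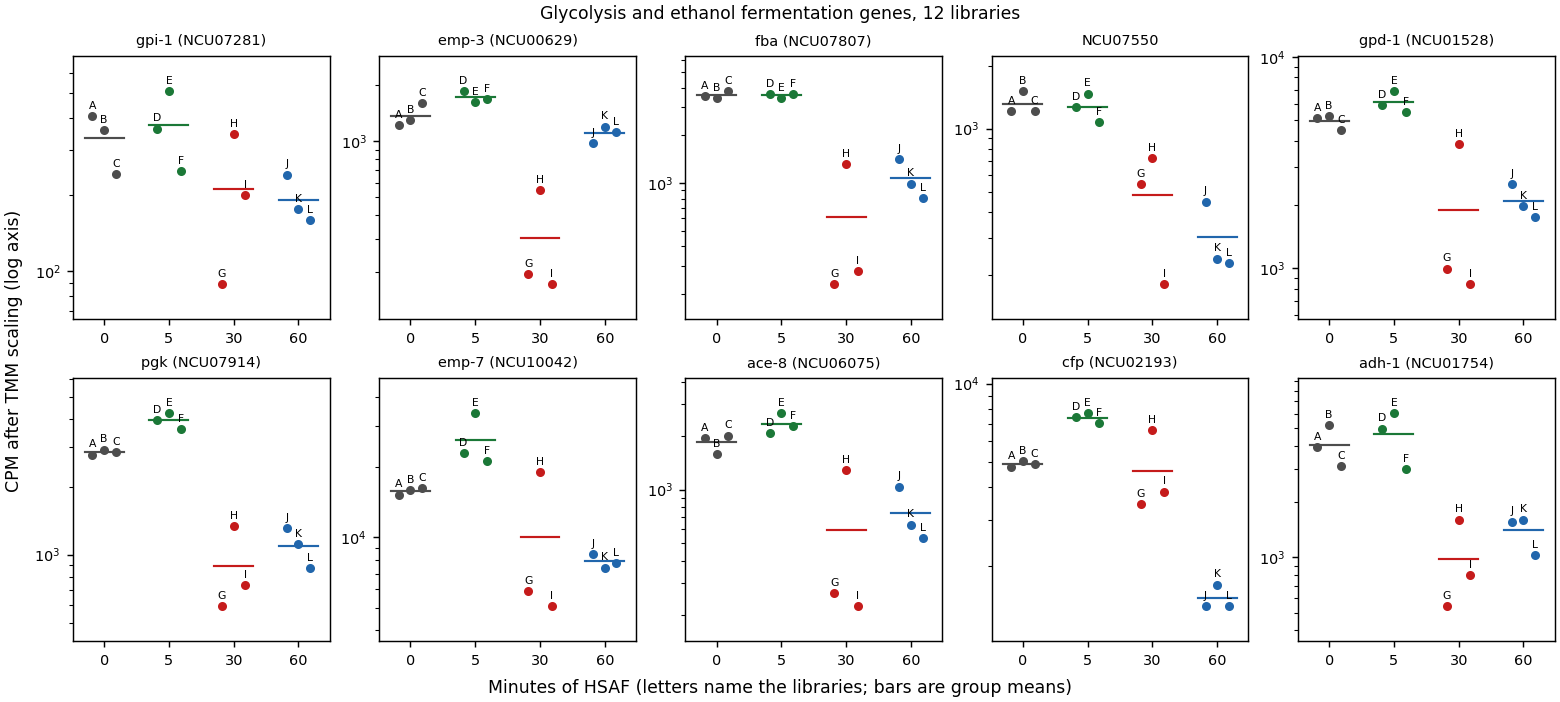
CPM after TMM scaling (log axis) of the 10 genes in the 12 libraries, against minutes of HSAF; letters name libraries and bars are group means. Libraries G and I lie below HSAF-0 for all 10 genes, whereas H is above it for emp-7 (19075 CPM) and cfp (6624 CPM) and below it for 7 genes.

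Levels were compared between genes per length, with the deposited FPKM brought to the depth on NCU genes in place of the total (rescaled FPKM). The gene emp-7, which encodes enolase, the enzyme that forms phosphoenolpyruvate, was first among the 10 in all 12 libraries and ranked between 3 and 73 among all NCU genes. Its rescaled FPKM was 11301 ± 775 in HSAF-0 (SD, n = 3), and it made up 33.8% to 37.2% of the summed FPKM of the 10 genes there. The gene gpd-1, which encodes glyceraldehyde-3-phosphate dehydrogenase, the NADH-forming step, came next in 10 of 12 libraries, with 5942 ± 996 in HSAF-0. In libraries G and I, cfp took that place.

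The order below these was close in HSAF-0. The rescaled FPKM was 3269 ± 303 for cfp, 3168 ± 896 for adh-1 and 3087 ± 310 for fba, which do not differ beyond their spread, and 2409 ± 217 for pgk. NCU07550 followed with 1577 ± 232. The lowest were ace-8 with 694 ± 117, emp-3 with 562 ± 38.0 and gpi-1 with 266 ± 91.0 rescaled FPKM. The genes of the pathway's regulated steps, phosphofructokinase (emp-3) and pyruvate kinase (ace-8), were thus both in the lower part of this range.

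After 5 min none of the 10 genes was called, and most values were slightly above HSAF-0. A gene was called where edgeR's quasi-likelihood test gave a Benjamini-Hochberg adjusted p under 0.01 over all tested genes and a change of at least 2-fold. The test called 0 of the 10 between HSAF-5 and HSAF-0, 0 had an unadjusted p under 0.05, and DESeq2 also called 0. Of all genes tested, 9.72% were called higher and 2.27% lower. The median log2 fold change of the 10 was 0.31, against -0.11 over all genes tested. For 6 of the 10 all HSAF-5 libraries lay above all HSAF-0 libraries, as did 23.4% of all genes tested.

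The largest difference among the 10 at 5 min was that of emp-7. It stood at 15241, 15880 and 16288 CPM in A, B and C and at 22993, 34054 and 21285 CPM in D, E and F. The groups did not overlap, with E far above D and F, and the log2 fold change was 0.72 ± 0.43 (SE, adjusted p = 0.237, edgeR). For cfp, the pyruvate decarboxylase that commits pyruvate to ethanol, HSAF-0 was at 4809, 5060 and 4911 CPM and HSAF-5 at 7450, 7712 and 7041 CPM. Its groups were tight and apart, and the log2 fold change was 0.59 ± 0.30 (adjusted p = 0.180). The direction over the 10 genes depended on the scaling: with library size alone, their median at 5 min was -0.18 and 8 of 10 were lower. Both emp-7 and cfp stayed higher there, at log2 fold changes of 0.24 and 0.09.

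After 30 min the pathway was lower at several steps, with fba, emp-3 and adh-1 showing the largest falls. The group means of cfp were close with TMM scaling, with its HSAF-30 libraries on both sides of HSAF-0. The test called 5 of the 10 lower in HSAF-30 than in HSAF-0 and 0 higher, where 15.2% of all genes tested were called lower and 19.1% higher. The median log2 fold change of the 10 was -1.54, against -0.17 over all genes tested. For 7 of 10 all HSAF-30 libraries lay below all HSAF-0 libraries, against 31.6% of all genes tested. Without library I, 4 of 10 were called lower (12.8% of all genes tested) and the median was -1.14. Without library H, 8 were called lower (16.9% of all genes tested) and the median was -2.27. With all 12 libraries, 7 were called with DESeq2, with its size factors, with upper quartile factors or with library size alone. Of all genes tested, 14.9%, 16.4%, 21.5% and 19.5% were called lower in these settings, in the same order.

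In the upper part of the pathway, emp-3 and fba fell at 30 min. Phosphofructokinase adds the second phosphate to the sugar and is the main control point of glycolysis; its gene emp-3 stood at 1221, 1292 and 1599 CPM in A, B and C and at 193, 547 and 171 CPM in G, H and I. All 3 treated libraries were below all untreated ones, by a fitted 4.49-fold (log2 fold change -2.17 ± 0.39, adjusted p = 0.000289, edgeR). Aldolase then splits the sugar into 2 trioses. Its gene fba stood at 3547, 3435 and 3810 CPM in HSAF-0 and at 231, 1324 and 281 CPM in G, H and I. The fall was 5.86-fold (log2 fold change -2.55 ± 0.52, adjusted p = 0.000802), the largest of the 10, and again H was the highest treated library. Both calls held when any single library was left out.

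The gene gpi-1, for the phosphoglucose isomerase that precedes these steps, was not called. Its levels were 404, 357 and 241 CPM in HSAF-0 and 89.0, 344 and 199 CPM in HSAF-30, so that the groups overlapped through library H. The log2 fold change was -0.66 ± 0.42 (adjusted p = 0.198).

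At 30 min pgk also fell, and NCU07550 was at the edge of the call. Phosphoglycerate kinase makes the first ATP of the pathway; pgk stood at 2771, 2917 and 2838 CPM in HSAF-0 and at 591, 1337 and 732 CPM in G, H and I. The groups were well apart, and the fall was 3.20-fold (log2 fold change -1.68 ± 0.33, adjusted p = 0.000604, edgeR), a call that held without any single library. NCU07550 stood at 1214, 1514 and 1217 CPM in HSAF-0 and at 544, 723 and 181 CPM in G, H and I. Here G and H lay closer together and I lay far below them. Its log2 fold change was -1.44 ± 0.42 with an adjusted p of 0.00969. That call was lost when any one of libraries A, B, C, D, E, F, G, I, K or L was left out, with adjusted p up to 0.0336 and a log2 fold change of -1.05 without library I.

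For gpd-1 and ace-8 the outcome at 30 min turned on library H and on the scaling, and for emp-7 on library H. The gene gpd-1 was at 995, 3850 and 841 CPM in G, H and I, against 4483 to 5252 CPM in HSAF-0. Its groups did not overlap, and its log2 fold change was -1.39 ± 0.46 (adjusted p = 0.0195, edgeR). For ace-8, which encodes pyruvate kinase, the last ATP-forming step, the levels were 265, 1288 and 223 CPM in HSAF-30 and 1576 to 1998 CPM in HSAF-0 (log2 fold change -1.63 ± 0.52, adjusted p = 0.0162).

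For emp-7 the HSAF-30 libraries spanned 5894, 19075 and 5071 CPM, on both sides of HSAF-0 (log2 fold change -0.66 ± 0.43, adjusted p = 0.209, edgeR). Without library H all 3 genes were called, with log2 fold changes of -2.44 for gpd-1, -1.53 for emp-7 and -2.91 for ace-8. With H, gpd-1 and ace-8 were called under DESeq2 size factors (adjusted p = 0.00890 and 0.00869), upper quartile factors (0.00286 and 0.00343) and library size alone (0.00277 and 0.00354). Library H had 7436973 counts on NCU genes, against 7473740 in G and 790513 in I. Its conidial sum was 43.1 CPM, against 40.7 in G and 12.4 in I. The cause of the difference between H and these libraries was not tested.

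The 2 genes of the fermentation branch differed at 30 min. Alcohol dehydrogenase reduces acetaldehyde to ethanol; adh-1 stood at 3958, 5187 and 3112 CPM in HSAF-0 and at 541, 1598 and 797 CPM in G, H and I. It fell 4.17-fold (log2 fold change -2.06 ± 0.42, adjusted p = 0.000699, edgeR) without overlap, and the call held without any single library. The gene before it in the branch, cfp, stood at 3450, 6624 and 3857 CPM in G, H and I, around its HSAF-0 levels of 4809 to 5060 CPM. Its log2 fold change was -0.09 ± 0.30 (adjusted p = 0.830), and its sign changed when B, G or I was left out (range -0.44 to 0.09 over the 12 libraries left out in turn). With upper quartile factors cfp was at -0.37 and with library size alone at -0.30, not called in either (adjusted p = 0.237 and 0.323, edgeR).

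**Figure D2:**
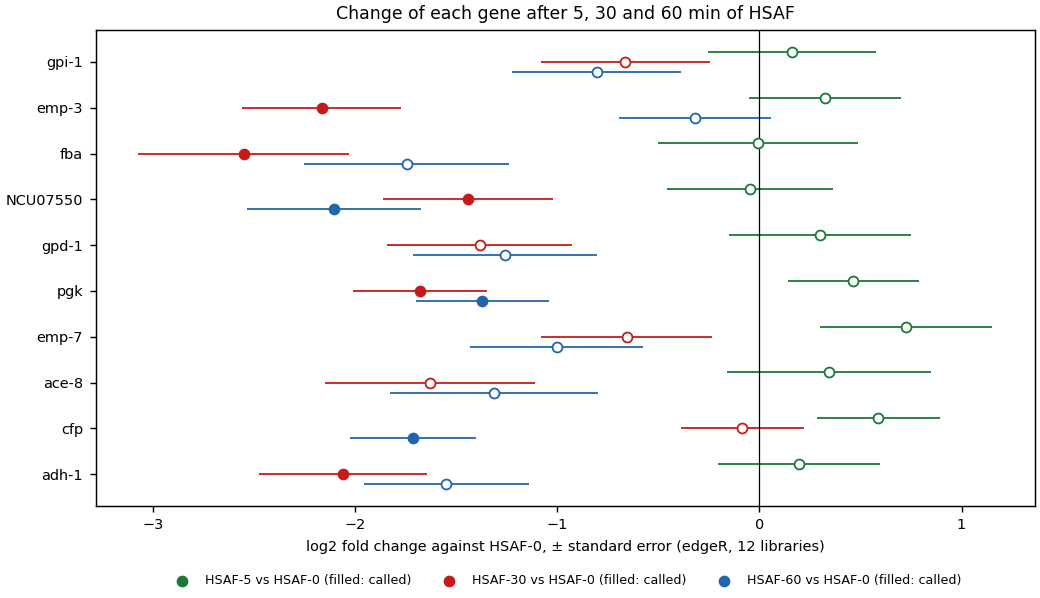
log2 fold change against HSAF-0 with its standard error (edgeR, 12 libraries) for each of the 10 genes after 5, 30 and 60 min; filled points were called. At 30 min fba (-2.55), emp-3 (-2.17) and adh-1 (-2.06) are farthest to the left and cfp (-0.09) is near 0, while at 60 min cfp (-1.71) is among the lowest and emp-3 (-0.32) is nearest to 0.

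Ratios of counts of 2 genes within a library do not depend on the scaling, and these pairs were picked after their values were seen, so they are given with no test. The ratio of cfp to adh-1 was 0.976 to 1.58 in HSAF-0, 1.27 to 2.35 in HSAF-5, 4.15 to 6.38 in HSAF-30 and 0.901 to 1.36 in HSAF-60. All 3 libraries of HSAF-30, H included, were above the other 9. The ratio of cfp to ace-8 was 2.46 to 3.21 in HSAF-0, 2.89 to 3.62 in HSAF-5, 5.14 to 17.3 in HSAF-30 and 1.35 to 2.66 in HSAF-60. Per length, cfp made up a median of 10.1% of the summed FPKM of the 10 genes in HSAF-0 and 11.7% in HSAF-5. The median was 23.6% in HSAF-30 (range 15.8% to 27.8%) and 7.84% in HSAF-60 (range 6.22% to 8.66%).

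The ratio of emp-7 to fba was 4.28 to 4.62 in HSAF-0, 5.87 to 9.88 in HSAF-5, 14.4 to 25.5 in HSAF-30 and 5.96 to 9.67 in HSAF-60. Every treated library was above HSAF-0, and HSAF-30 was the highest group. As a share of the summed FPKM of the 10 genes, fba was at 8.71% to 10.3% in HSAF-0 and at 2.06% to 4.14% in HSAF-30. Other pairs overlapped: the ratio of adh-1 to gpd-1 was 0.415 to 0.948 in HSAF-30 and 0.694 to 0.987 in HSAF-0.

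**Figure D3:**
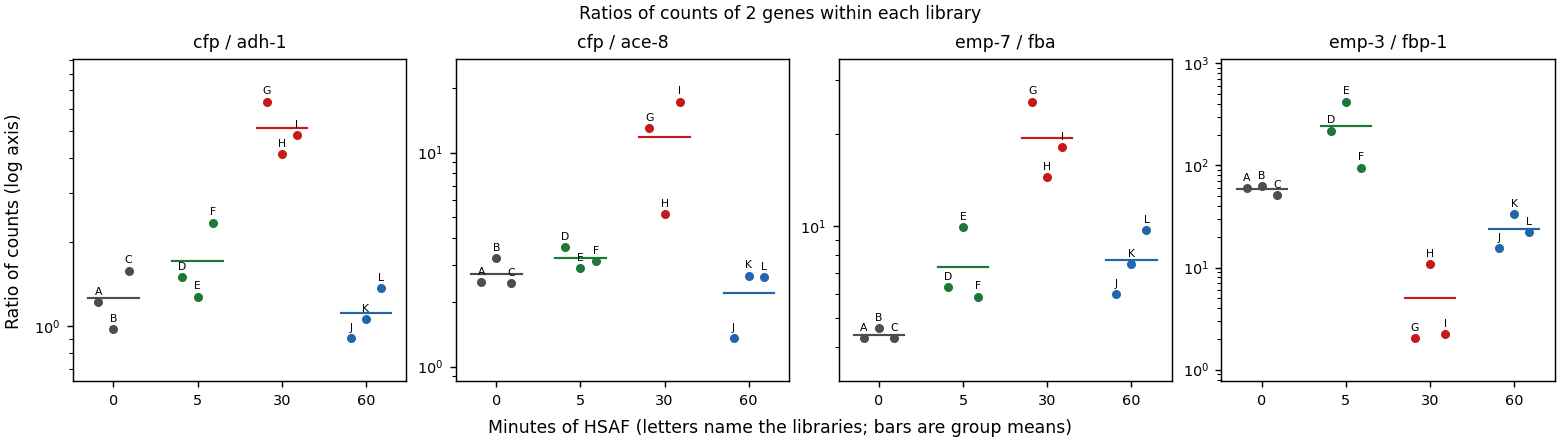
Ratio of counts of 2 genes within each library (log axis) against minutes of HSAF, for cfp to adh-1, cfp to ace-8, emp-7 to fba and emp-3 to fbp-1; letters name libraries and bars are group means. In HSAF-30 the first 3 ratios are above all other groups (4.15 to 6.38 for cfp to adh-1) and the last is below them (2.02 to 10.8).

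After 60 min all 10 genes lay below HSAF-0, and NCU07550, cfp and pgk were called. The test called 3 of 10 lower and 0 higher, where 3.53% of all genes tested were called lower and 9.38% higher. The median log2 fold change of the 10 was -1.34, against 0.00195 over all genes tested. For 10 of 10 the HSAF-60 libraries lay below all HSAF-0 libraries, against 25.2% of all genes tested. This gap was narrow for gpi-1, where the highest HSAF-60 library stood at 239.6 CPM and the lowest HSAF-0 library at 240.7 CPM. The 3 comparisons with HSAF-0 share the same untreated libraries and are not independent of each other.

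The gene cfp, which was not called at 30 min, stood at 1407, 1697 and 1400 CPM in J, K and L against 4809, 5060 and 4911 CPM in A, B and C. Both groups were tight, and the fall was 3.28-fold (log2 fold change -1.71 ± 0.31, adjusted p = 0.000887, edgeR), a call that held without any single library. NCU07550 stood at 448, 239 and 228 CPM in J, K and L, all below its HSAF-0 levels of 1214 to 1514 CPM. Its fall was 4.31-fold (log2 fold change -2.11 ± 0.43, adjusted p = 0.00200), and the call was lost without K or without L (adjusted p up to 0.0170).

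The gene pgk stood at 1307, 1111 and 875 CPM in J, K and L, below all HSAF-0 libraries. Its fall was 2.59-fold (log2 fold change -1.37 ± 0.33, adjusted p = 0.00624, edgeR), and the call was lost when A, B, C, D, E, F, K or L was left out (adjusted p up to 0.0484). The number of genes called at 60 min was 4 without library I, where adh-1 was added (adjusted p = 0.00876), and 5.17% of all genes tested were then called lower. It was 1 without K or L, where 1.23% and 1.09% of all genes tested were called lower, 5 without G (3.86%) and 7 without H (5.60%).

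The genes fba, adh-1, gpd-1, ace-8, emp-7 and gpi-1 were not called at 60 min with TMM scaling and all 12 libraries. Their log2 fold changes were -1.75 for fba (adjusted p = 0.0194, edgeR), -1.55 for adh-1 (adjusted p = 0.0111), -1.26 for gpd-1 (adjusted p = 0.0540), -1.32 for ace-8 (adjusted p = 0.0738), -1.003 for emp-7 (adjusted p = 0.1001) and -0.81 for gpi-1 (adjusted p = 0.178). With other settings fba was called by DESeq2 (adjusted p = 0.00271) and by edgeR with upper quartile factors (0.00866). Likewise adh-1 was called by DESeq2 (0.000942) and by edgeR with upper quartile factors (0.00507) or DESeq2 size factors (0.00882). In J, K and L, fba was at 1421, 992 and 804 CPM, adh-1 at 1561, 1600 and 1028 CPM and emp-7 at 8468, 7422 and 7773 CPM. The gene emp-3 stood apart from these: it was at 978, 1196 and 1122 CPM, just under its HSAF-0 range of 1221 to 1599 CPM (log2 fold change -0.32 ± 0.38, adjusted p = 0.578).

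The comparisons between treated groups test directly whether the effects at 2 times differ. Between HSAF-30 and HSAF-5 the test called 5 of 10 lower in HSAF-30 and 0 higher, where 7.81% of all genes tested were called lower and 9.02% higher. The median log2 fold change of the 10 was -1.83, against -0.11 over all genes tested. The called genes were emp-3 (-2.49 ± 0.40, adjusted p = 0.000295, edgeR), fba (-2.54 ± 0.52, adjusted p = 0.00188), pgk (-2.14 ± 0.34, adjusted p = 0.000261), adh-1 (-2.26 ± 0.42, adjusted p = 0.000902) and ace-8 (-1.97 ± 0.53, adjusted p = 0.00974). For 9 of 10, all but gpi-1, the groups did not overlap, against 21.3% of all genes tested. The call of ace-8 was lost when any library other than H or J was left out (adjusted p up to 0.0453). Without library I, 4 were called (5.29% of all genes tested were then called lower) and without H 8 (11.8%).

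Between HSAF-60 and HSAF-30, 2 of the 10 genes were called and they moved in opposite directions. The gene emp-3 rose 3.60-fold, from 193, 547 and 171 CPM in G, H and I to 978, 1196 and 1122 CPM in J, K and L (log2 fold change 1.85 ± 0.39, adjusted p = 0.00136, edgeR), where 13.4% of all genes tested were called higher. The gene cfp fell 3.09-fold (log2 fold change -1.63 ± 0.31, adjusted p = 0.000663), where 13.8% of all genes tested were called lower. With all 12 libraries they were also the only ones of the 10 without overlap between these groups, against 27.7% of all genes tested above and 20.7% below. Both calls held without any single library; without H, 5 were called, 4 of them higher (1005 of 7711 genes tested). The other 8 genes had log2 fold changes between -0.67 and 0.81.

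Neighbouring steps were read from 8 further genes with a symbol in the reference, chosen for their place in metabolism. They were emp-1 (hexokinase, which feeds glucose into the pathway), emp-6 (phosphoglycerate mutase), fbp-1 (fructose-1,6-bisphosphatase) and acu-6 (phosphoenolpyruvate carboxykinase) of gluconeogenesis, ppm-2 (6-phosphogluconate dehydrogenase), ace-2 and ace-4 of the pyruvate dehydrogenase complex, and acu-5 (acetyl-CoA synthetase). Against HSAF-0, 1 of 8 was called lower and 0 higher in HSAF-5, 2 lower and 1 higher in HSAF-30, and 0 in HSAF-60. Over all genes tested, 2.27% were called lower and 9.72% higher at 5 min, 15.2% lower and 19.1% higher at 30 min, and 3.53% lower and 9.38% higher at 60 min. At 60 min 5 of the 8 had an unadjusted p under 0.05 (edgeR). Of all genes tested 24.2% had an adjusted p under 0.05, so the share under that unadjusted limit was at least as large. DESeq2 called 1 of the 8 at 60 min, where it called 4.87% of all genes lower and 9.80% higher.

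The gene fbp-1, whose enzyme reverses the phosphofructokinase step, rose at 30 min, when emp-3 fell. It stood at 20.3, 20.5 and 31.1 CPM in HSAF-0, 8.47, 3.84 and 17.6 CPM in HSAF-5, 95.8, 50.8 and 76.6 CPM in HSAF-30 and 62.8, 35.8 and 50.2 CPM in HSAF-60. HSAF-30 lay above HSAF-0 without overlap (log2 fold change 1.63 ± 0.43, adjusted p = 0.00538, edgeR), but the call was lost without A, B, G or I, with upper quartile factors (adjusted p = 0.0143) and with library size alone (adjusted p = 0.0121). Between HSAF-30 and HSAF-5 it was 2.87 ± 0.46 (adjusted p = 0.000315), a call that held without any single library. The ratio of emp-3 to fbp-1 counts was 51.4 to 63.1 in HSAF-0, 95.3 to 420.1 in HSAF-5, 2.02 to 10.8 in HSAF-30 and 15.6 to 33.4 in HSAF-60.

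At the entry of the pathway, emp-1 fell at 30 min and rose from 30 to 60 min, as emp-3 did. It was at 1380, 1822 and 2162 CPM in HSAF-0, 436, 371 and 382 CPM in G, H and I and 1109, 1365 and 1127 CPM in J, K and L. Here library H was as low as G and I. The log2 fold change was -2.17 ± 0.33 at 30 min against HSAF-0 (adjusted p = 5.64e-05, edgeR), -2.20 ± 0.33 against HSAF-5 (adjusted p = 0.000177), and 1.60 ± 0.32 from 30 to 60 min (adjusted p = 0.00101). All 3 calls held without any single library. The gene emp-6 was called lower between HSAF-30 and HSAF-5 (-1.40 ± 0.33, adjusted p = 0.00499), a call lost without D, E, F, G or I.

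At the exit, acu-5, whose enzyme makes acetyl-CoA from acetate, was at 466, 387 and 340 CPM in HSAF-0, 147, 169 and 104 CPM in HSAF-5, 40.9, 79.6 and 46.9 CPM in HSAF-30 and 306, 168 and 117 CPM in HSAF-60. It fell at 30 min against HSAF-0 (log2 fold change -2.82 ± 0.40, adjusted p = 2.86e-05, edgeR) and rose from 30 to 60 min (1.81 ± 0.38, adjusted p = 0.00141). At 5 min the call (-1.50 ± 0.38, adjusted p = 0.00871) was lost without A, B, C, D, E, F or K.

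The gene ace-2 fell from 760, 673 and 466 CPM in HSAF-30 to 263, 200 and 249 CPM in HSAF-60, without overlap. The log2 fold change was -1.42 ± 0.32 (adjusted p = 0.00200, edgeR), a call lost without K. Neither acu-6, ppm-2 nor ace-4 was called in any of the 5 comparisons with all 12 libraries; ace-4 was called lower from 30 to 60 min without library I (log2 fold change -1.16, adjusted p = 0.00719).

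**Figure D4:**
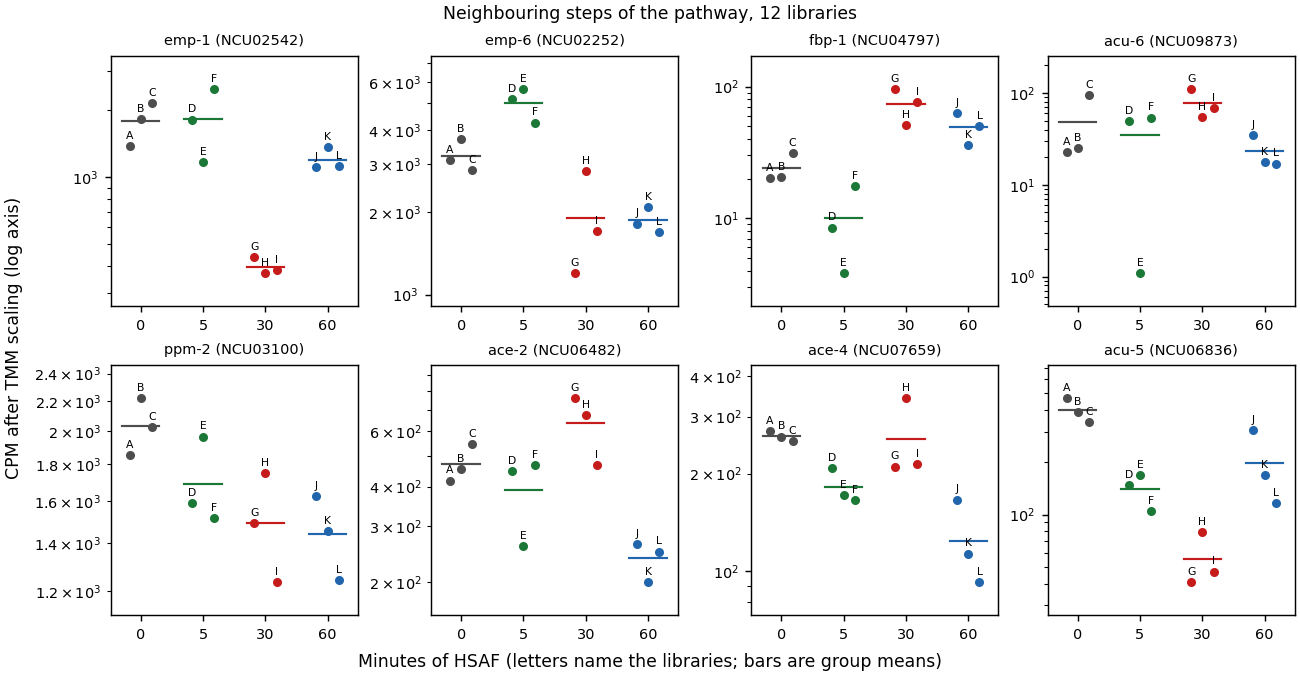
CPM after TMM scaling (log axis) of the 8 genes of neighbouring steps in the 12 libraries, against minutes of HSAF; letters name libraries and bars are group means. The HSAF-30 libraries are the lowest group for emp-1 (371 to 436 CPM) and acu-5 (40.9 to 79.6 CPM) and the highest for fbp-1 (50.8 to 95.8 CPM).

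The variation of the 10 genes over the 12 libraries was largely shared. On log2 CPM, the correlation of a gene with the mean of the other 9 was highest for gpd-1 (r = 0.990), pgk (0.977) and ace-8 (0.974), and lowest for cfp (0.600) and emp-3 (0.771). The 12 points share depth, scaling and group means, so these correlations are a description. The SD over the libraries was largest for fba, at 1.47 on the log2 scale, and smallest for gpi-1, at 0.70. Among 1046 other genes with a symbol, those with the highest correlation to the mean of the 10 were tre-2 (r = 0.956), ad-8 (0.955), cox-6 (0.950), arg-3 (0.948) and emp-6 (0.942), over the same 12 libraries.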

How the data were processed

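RNA-seq libraries of N. crassa mycelium were grouped by the labels (4 groups of 3). The authors deposited raw counts per feature, on 9729 NCU genes and 1680 features named newGene, and FPKM for the same features. The FPKM were deposited with totals that include the newGene features. Reads were trimmed with Trimmomatic by the authors. No aligner, counter, build or strand setting is given in the sources used here, so reads of overlapping genes cannot be told apart. Depth and its precision are given with the results.

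NCU genes were tested with edgeR 4.0.16 (R 4.3.3; TMM, filterByExpr with a minimum count of 10, 1 fit of 12 libraries). The standard error is the log2 fold change divided by the square root of F. Called means adjusted p under 0.01 and absolute log2 fold change of at least 1. The fit without library I kept 7788 genes. Alternatives were DESeq2 1.42.0, limma 3.58.1 on log2(FPKM + 1), other scalings and filters, and leaving out each library. The code was tested on simulated data.

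The members and lists were chosen with earlier results of these data known. The named genes are all 10 members, the neighbouring steps and the 5 genes most correlated with the members' mean. A symbol prefix also matched 5 genes of GPI anchors, another pathway, which were left out. The study names 2 sequencing platforms without assigning libraries, so this batch could not be checked. Within each group no 2 libraries were duplicates, and pairs from different groups were not checked.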

Additional observations from a re-analysis of the deposited data

Results flagged for a closer look

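For 6 genes the effect of HSAF differed between 2 time points by the test of the difference itself (edgeR's quasi-likelihood test, 3 libraries per group, Benjamini-Hochberg adjusted over 7582 genes). From 5 to 30 min the log2 difference was -2.49 for emp-3 (adjusted p = 0.000295), -2.54 for fba (adjusted p = 0.00188), -2.14 for pgk (adjusted p = 0.000261), -1.97 for ace-8 (adjusted p = 0.00974) and -2.26 for adh-1 (adjusted p = 0.000902). The call of ace-8 was lost when any library other than H or J was left out (adjusted p up to 0.0453). Of all genes tested, 7.81% were called lower from 5 to 30 min. For these 5 genes, 3 of 3 HSAF-30 libraries lay below all HSAF-5 libraries, as for 21.3% of all genes tested. The same libraries gave the calls, so this is a description and no separate support. From 30 to 60 min the difference was 1.85 for emp-3 (adjusted p = 0.00136), with 3 of 3 HSAF-60 libraries above HSAF-30. For cfp it was -1.63 (adjusted p = 0.000663), with 3 of 3 below. From 30 to 60 min, 13.4% of all genes tested were called higher and 13.8% lower, so 1 of 10 in each direction was not above these shares. Of all genes tested, 27.7% lay above and 20.7% below without overlap, and these positions too come from the libraries that gave the calls. Since both effects are taken against the same HSAF-0 libraries, each difference equals the comparison of the treated groups.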

How the results depend on the processing

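No paired analysis was possible because no number in the labels links a library of 1 time point to one of another. At 5 min 0 of the 10 genes were called under all alternatives run. At 30 min against HSAF-0, 5 were called, against 7 with library size alone, upper quartile factors, DESeq2, its size factors or an adjusted p under 0.05, and 4 with only the 2 groups compared. There limma on log2(FPKM + 1) called 0 with or without its filter and on log2(FPKM + 0.1) 1; leaving out 1 library gave 4 to 8. At 60 min, 3 were called, against 5 with upper quartile factors, 5 with DESeq2, 5 at an adjusted p under 0.05 with any fold, 7 with only the 2 groups compared and 0 with limma on log2(FPKM + 1), on log2(FPKM + 0.1) or without its filter; leaving out 1 library gave 1 to 7. Between HSAF-30 and HSAF-5, 5 were called, against 8 with upper quartile factors, 8 with DESeq2, 8 at an adjusted p under 0.05 and 0 with limma in the same 3 forms; leaving out 1 library gave 4 to 8. Between HSAF-60 and HSAF-30, 2 were called, against 1 with only the 2 groups compared and 0 with limma in the 3 forms; leaving out 1 library gave 2 to 5. On the deposited FPKM without its filter, limma called 0 of 9729 at 30 min against HSAF-0 or HSAF-5. On log2(FPKM + 1) it called 19 of 6197 lower at 60 min and 5 of 6197 between HSAF-30 and HSAF-5. The counts of 0 in those settings say nothing about the 10 genes. With its filter limma called 235 of 6197 lower at 30 min against HSAF-0 on log2(FPKM + 1) and 377 on log2(FPKM + 0.1). Between HSAF-60 and HSAF-30 it called 733 higher and 29 lower on log2(FPKM + 1). Of all genes tested, 5.96% were called lower at 60 min with upper quartile factors, 4.87% with DESeq2 and 7.10% with only the 2 groups. Between HSAF-30 and HSAF-5 it was 9.21% and 9.07% with the first 2. At an adjusted p under 0.05, 23.8% were lower at 30 min, 8.98% at 60 min and 14.7% between HSAF-30 and HSAF-5. With only the 2 groups, 12.3% were lower at 30 min, and 9.39% lower and 7.82% higher between HSAF-60 and HSAF-30. The cause of these differences was not tested. After the FPKM were rescaled to NCU counts, limma called 7 at 30 min against HSAF-0, 6 between HSAF-30 and HSAF-5 and 2 between HSAF-60 and HSAF-30. Of all genes tested in that fit, 20.8%, 6.32% and 8.85% were called lower, in the same order, and 15.0%, 11.4% and 20.6% higher.

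Signs turned for emp-7 at 5 min (log2 fold change of emp-7, HSAF-5 vs HSAF-0: -0.0229 with limma on FPKM under either pseudocount), for cfp at 5 min (log2 fold change of cfp, HSAF-5 vs HSAF-0: -0.129 in the same fits), for cfp at 30 min (log2 fold change of cfp, HSAF-30 vs HSAF-0: 0.0148 with only the 2 groups compared, and -0.438 to 0.0887 over the left-out libraries), and for emp-3 at 60 min (log2 fold change of emp-3, HSAF-60 vs HSAF-0: 0.274 with limma on log2(FPKM + 1) with or without its filter, 0.277 with 0.1). Scaling by library size alone moved the median log2 fold change of all genes from -0.11 to -0.61 at 5 min, from -0.17 to -0.44 at 30 min and from 0.0953 to 0.515 between 30 and 60 min, and the share of higher genes among those called from 81.1% to 46.3%, from 55.7% to 45.0% and from 49.2% to 68.2%. Library I had 4195 genes with at least 10 counts against 7686 in J, which limits weakly expressed neighbours such as fbp-1 more than the 10 genes.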
